A study of Homo sapiens with 6 samples.

Results

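The Frizzled receptor family was followed in MDA-MB-231 cells, a triple-negative human breast cancer line, with and without a short hairpin RNA against ROR1. Its members were taken by symbol, FZD1 to FZD10, which gave 10 of the 57445 genes in the expression table. Gene expression had been measured by RNA-Seq in 3 shCTL and 3 shRor1 libraries. Both groups carried a pGIPZ vector delivered by lentivirus and were kept under 2 µg/ml puromycin, so the vector and the drug were common to all 6 libraries, and the groups differed in the hairpin, which was a control hairpin in shCTL and a ROR1 hairpin in shRor1. The sample labels call the shCTL cells empty vector cells, while the methods describe a non-silencing hairpin. The column name of the control libraries also carries the word DMSO, which neither the labels nor the methods explain, so a solvent given to the controls alone and the hairpin cannot be told apart. Whether the selected cells were pools or single clones, and whether the libraries of a group came from separate cultures, was not given in the sources used here, so p-values measure only the spread between these libraries, which may be technical.

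Frizzled proteins are receptors with 7 membrane-spanning helices and a cysteine-rich outer domain that binds lipid-modified Wnt ligands. With the co-receptors LRP5 or LRP6 they signal through Dishevelled to stabilise beta-catenin, and with co-receptors such as ROR1, ROR2, RYK or PTK7 they take part in the non-canonical branches that steer cell polarity and movement. The family falls into FZD1, FZD2 and FZD7, into FZD5 and FZD8, into FZD3 and FZD6, and into FZD4, FZD9 and FZD10. ROR1 binds Wnt5a and acts beside Frizzled receptors, and the comparison asks whether the receptor repertoire differed when its transcript was targeted.

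What the members share at their inner end is the KTXXXW motif, in which X is any residue and through which Dishevelled binds. The canonical transcripts (GENCODE 44 on GRCh37) held 1 in-frame copy in each of the 10 members, against 430 of 19894 coding genes (2.16%) with at least 1 copy. The 30 coding bases around it are shown for 8 members, 5′ to 3′ on the coding strand, because they show how alike the site is in receptors of very different level. Capitals mark the codons for lysine with threonine and for tryptophan.
FZD1: tccggcAAGACCctcaactccTGGaggaag
FZD2: tcgggcAAGACGctgcactcgTGGaggaag
FZD7: tcgggcAAGACCctgcagtcgTGGcgccgc
FZD5: tcgggcAAGACGgtggagtcgTGGcggcgt
FZD8: tccggcAAGACGctggagtccTGGcgctcc
FZD4: tctgccAAAACTcttcacacgTGGcagaag
FZD9: agctccAAGACTttccagaccTGGcagagc
FZD10: acctccAAGACTctgcagtccTGGcagcag
The distance from the motif to the end of the protein differed between most members. It was 17 codons in each of FZD1, FZD2 and FZD7, 33 in FZD4, 50 in FZD10, 54 in FZD9, 55 in FZD5, 81 in FZD8, 159 in FZD3 and 203 in FZD6.

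The longest identical stretches between members matter for the measurement, since a read of 50 bases that lies inside one cannot be placed by its sequence alone. The stretches of more than 50 bases were all coding and are given in lower case, 5′ to 3′, on the coding strand.
FZD1 and FZD2: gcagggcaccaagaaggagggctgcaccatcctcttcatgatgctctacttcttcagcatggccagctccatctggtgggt
FZD2 and FZD7: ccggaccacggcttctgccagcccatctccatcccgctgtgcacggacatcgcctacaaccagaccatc
FZD2 and FZD5: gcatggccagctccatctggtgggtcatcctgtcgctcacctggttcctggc
FZD5 and FZD8: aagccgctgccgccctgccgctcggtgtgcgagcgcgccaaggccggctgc
They were 81 bases long for FZD1 and FZD2, 69 for FZD2 and FZD7, 52 for FZD2 and FZD5, and 51 for FZD5 and FZD8. Even so, words of 50 bases found in any other gene made up 0.467% of the words of FZD1, 2.2% of FZD2, 0.441% of FZD7, 0.0858% of FZD5, 0.85% of FZD8, 0.559% of FZD4 and 1.01% of FZD3, and none of those of FZD6, FZD9 and FZD10. The 32 shared words of FZD1 were all shared with FZD2. Of the 34 shared words of FZD8, 32 were shared with MIR4683, a small RNA gene that lies within FZD8 itself. Words were compared on the transcript strand only, so genes on the opposite strand of a member are not counted by their overlap. At the protein level the closest pairs were FZD1 and FZD2 (81.2% identical residues), FZD1 and FZD7 (81.1%), FZD2 and FZD7 (80.1%), FZD5 and FZD8 (71.8%) and FZD9 and FZD10 (66.7%), and the most distant pair was FZD6 and FZD10 (36.2%).

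The targeted gene ROR1 had 15.42, 13.49 and 20.56 TPM in shCTL and 9.34, 11.93 and 14.85 TPM in shRor1, so the groups overlapped in the highest shRor1 library. TPM divides out the length of the transcript and the size of the library, which allows levels of different genes to be compared but keeps no depth. The ROR1 difference in log2(TPM + 1) was -0.43 (95% interval -0.88 to 0.03) and did not pass the test across all genes (adjusted p = 0.984, limma). These are RNA levels, while the paper shows its stable Ror1 knock-down at the protein level, by western blot. Among the markers of the line, VIM (2565 ± 149 TPM, SD, n = 3, in shCTL) and CD44 (446.5 ± 59.3) were high. FN1, also listed as a high marker, was near the level of ERBB2, a low one, and ran from 15.59 to 43.88 TPM in shCTL and from 17.02 to 76.86 in shRor1. ESR1 and PGR were at or below 0.21 TPM in every library, and ERBB2 was measured at 29.4 ± 2.81 TPM in shCTL. The luminal keratins KRT8 (521 ± 66.4) and KRT18 (498 ± 8.03) were also abundant, while the basal keratin KRT5 stayed at or below 0.07 TPM. The other luminal markers were lower than these keratins. KRT19 ran from 84.77 to 141.5 TPM over the libraries and EPCAM from 12.58 to 15.8. FOXA1 was at or below 5.45 TPM and GATA3 at or below 4.69 TPM in every library. CDH1 ran from 0.8 to 1.22 TPM in shCTL and from 1.36 to 1.47 in shRor1 (adjusted p = 0.984, limma). The luminal list was thus mixed, with ESR1 and PGR at its low end. The third shRor1 library stood apart in scale. Its median ratio to the geometric mean of all 6 libraries was 1.10, against 0.951 to 1.02 in the other 5. It also held the most genes at 1 TPM or more (17033 against 16036 to 16597).

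FZD6 was the most abundant Frizzled gene in every library. It is a receptor of the planar cell polarity pathway, which orients cells within a sheet. Its level was 48.48, 51.76 and 55.46 TPM in shCTL and 44.53, 50.01 and 58.91 TPM in shRor1. The lowest and the highest value both came from shRor1 libraries, so the control range lay inside the knock-down range. The means were 51.9 ± 3.49 and 51.2 ± 7.26 TPM (SD, n = 3 each), a difference in log2(TPM + 1) of -0.03 ± 0.11 (SE, 95% interval -0.29 to 0.23, adjusted p = 0.987, limma). FZD6 was higher than 80% of the tested genes in shCTL, and it supplied 52.2% of the summed Frizzled TPM there and 50.9% in shRor1. Its close relative FZD3, a receptor known for axon guidance, was far lower, at 3.28, 2.86 and 2.32 TPM in shCTL and 2.74, 3.02 and 2.63 TPM in shRor1. All shRor1 values of FZD3 lay inside the control range (2.82 ± 0.481 against 2.80 ± 0.201 TPM).

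The subfamily of FZD1, FZD2 and FZD7 came next. FZD2, a receptor that can answer Wnt5a, stood in the controls at 18.68, 19.96 and 22.31 TPM and in the shRor1 libraries at 19.99, 20.96 and 19.82 TPM. The shRor1 values again fell inside the control range, and the means were nearly equal (20.3 ± 1.84 and 20.3 ± 0.615 TPM). FZD7, a receptor described in triple-negative breast cancer and in intestinal stem cells, had 14.22, 13.29 and 14.48 TPM in shCTL and 14.82, 15.21 and 13.7 TPM in shRor1. Its first and second shRor1 libraries were above every control and the third was not, which gave 14.0 ± 0.626 against 14.6 ± 0.784 TPM. FZD7 and FZD2 were the steadiest members, with coefficients of variation over the 6 libraries of 4.97% and 6.05%. FZD1, a broadly expressed Wnt receptor, had 4.61, 4.78 and 4.97 TPM in shCTL and 4.6, 5.89 and 5.46 TPM in shRor1. The second and the third shRor1 library exceeded all controls and the first was just below them, with means of 4.79 ± 0.180 and 5.32 ± 0.657 TPM.

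FZD5, needed for maturation of the Paneth cells of the gut, and its relative FZD8 were low. FZD5 had 2.34, 2.59 and 2.22 TPM in shCTL and 2.36, 2.62 and 2.53 TPM in shRor1, with overlapping groups. FZD8 had 1.03, 1.27 and 0.77 TPM in shCTL and 1.27, 0.93 and 0.7 TPM in shRor1, and it reached 1 TPM in just 3 libraries, the fewest that the filter on low values accepted. Among the 8 tested members the values of FZD8 scattered most in relative terms, with a coefficient of variation of 24.4%.

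FZD4, which binds norrin as well as Wnt ligands and works with LRP5 and TSPAN12 in retinal vessels, had 1.97, 2.14 and 2.52 TPM in shCTL and 1.83, 2.53 and 3.43 TPM in shRor1. The lowest and the highest value were both from shRor1, and the third shRor1 library was the highest of all. FZD9 did not exceed 0.05 TPM (0.01, 0.04 and 0.03 in the controls, 0, 0.05 and 0.04 in shRor1), and FZD10, known as an antibody target in synovial sarcoma, was listed at 0 in all 6 libraries. Values carry 2 decimals, and the depth behind each column is unknown. Both genes failed the filter on low values and were not tested.

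**Figure D1:**
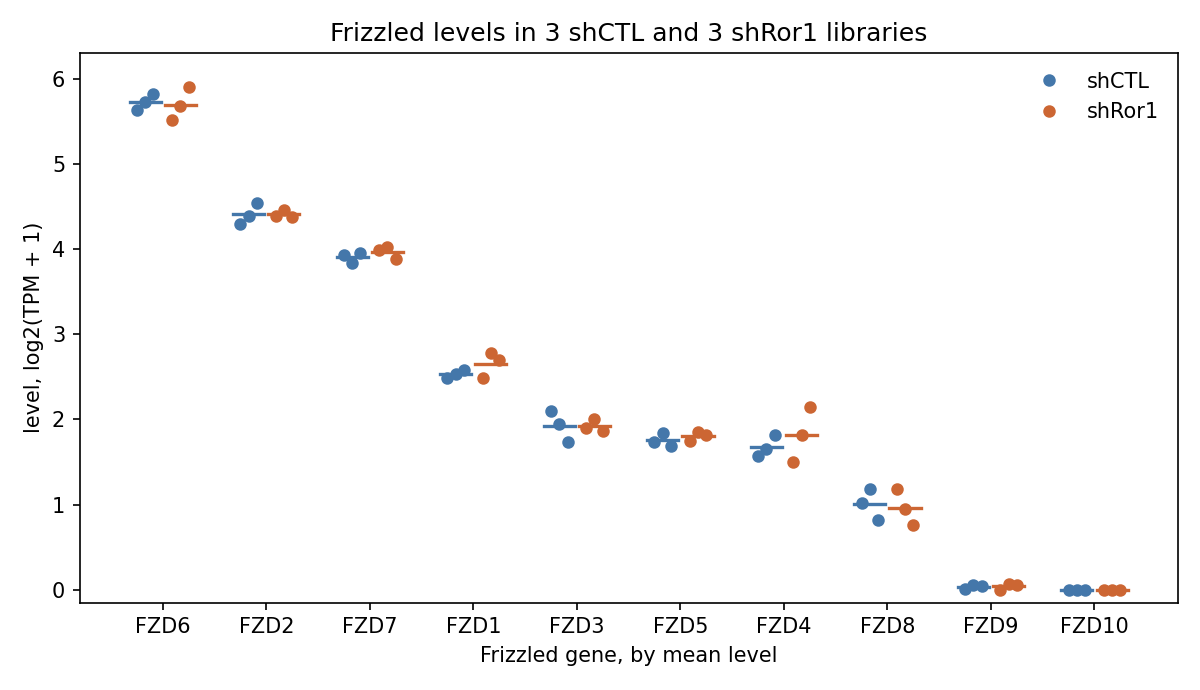
Level of each Frizzled gene in log2(TPM + 1) (y axis) for the genes ordered by mean level (x axis), with 1 point per library, 3 shCTL (blue) and 3 shRor1 (orange), and a line at each group's mean. FZD6 lies highest in every library, FZD9 and FZD10 lie at or near 0, and the groups overlap for each of the 8 tested genes.

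The order of levels, FZD6, FZD2, FZD7, FZD1, FZD3, FZD5, FZD4, FZD8, FZD9 and FZD10, was compared between the 9 neighbouring pairs over all 6 libraries. The pairs follow from an order that was set on the same libraries, so their lead is a description and no p is given for it. In 7 pairs the higher gene led in 6 of 6 libraries. The steps were a median ratio of 2.54 from FZD6 to FZD2, 1.41 from FZD2 to FZD7, 2.85 from FZD7 to FZD1, 1.82 from FZD1 to FZD3, 1.13 from FZD3 to FZD5 and 2.32 from FZD4 to FZD8. FZD5 and FZD4 did not differ beyond their spread, since FZD5 was higher in 4 of 6 libraries and the ratio ran from 0.738 to 1.29. FZD9 was above FZD10 in 5 of 6 libraries, by 0.04 on the log2(TPM + 1) scale, and with FZD10 listed at 0 throughout no other direction was possible.

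Summed over the family, the level was 94.62, 98.69 and 105.08 TPM in shCTL and 92.14, 101.22 and 107.22 TPM in shRor1. The means were 99.5 ± 5.27 and 100.2 ± 7.59 TPM, and the ranges overlapped. FZD3 with FZD6 supplied 54.7 ± 3.01 TPM in shCTL and 54.0 ± 7.18 in shRor1, and FZD1, FZD2 and FZD7 supplied 39.1 ± 2.32 and 40.2 ± 1.67. FZD5 with FZD8 gave 3.41 ± 0.436 and 3.47 ± 0.212 TPM, and FZD4 with FZD9 and FZD10 gave 2.24 ± 0.289 and 2.63 ± 0.821. In bulk RNA, fewer cells that use a receptor and less of its RNA per cell cannot be told apart.

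Across the condition, 0 of the 8 tested Frizzled genes passed the adjusted threshold of 0.05 in limma, and 0 of the 8 had an unadjusted p below 0.05. Over all 16554 tested genes the share called was 0% after adjustment (smallest adjusted p 0.369), and 472 genes (2.85%) had an unadjusted p below 0.05, of which 382 were higher (2.31% of those tested) and 90 lower (0.544%). The paper used edgeR on counts and reported AGR2 and an uncharacterized gene as differential at a false-discovery rate below 0.05. Neither was called here by limma on TPM, and the reason was not tested. By estimate, 4 members were higher and 4 were lower in shRor1, where 67.0% of all tested genes were higher. Their median difference in log2(TPM + 1) was 0.03, beside 0.05 over all tested genes, and their median absolute difference was 0.05, beside 0.09. All 8 overlapped between the groups, where 1288 of all tested genes (7.78%) did not.

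The member furthest from 0 was FZD4, at 0.14 ± 0.18 in log2(TPM + 1) (SE, 95% interval -0.29 to 0.57, adjusted p = 0.984, limma), and 30.9% of all tested genes had a larger absolute difference. FZD1 followed with 0.12 ± 0.12 (interval -0.16 to 0.41) and had the smallest unadjusted p of the family, 0.352 in limma. FZD7 was at 0.05 (-0.16 to 0.27) and FZD5 at 0.05 (-0.23 to 0.33), and both estimates turned negative when libraries were rescaled by their median ratio (-0.02 and -0.007) or quantile normalised (-0.03 and -0.04). FZD8 was at -0.04 (-0.43 to 0.35), FZD3 at -0.002 (-0.33 to 0.32) and FZD2 at -0.001 (-0.22 to 0.22). Written as ratios of TPM + 1, the intervals ran from 0.859 to 1.16 for FZD2, from 0.818 to 1.18 for FZD6, from 0.893 to 1.33 for FZD1 and from 0.820 to 1.49 for FZD4. Exact two-sided permutation tests of 3 against 3 libraries, which cannot go below p = 0.1, gave p from 0.4 (FZD1, FZD5 and FZD7) to 1 (FZD3).

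**Figure D2:**
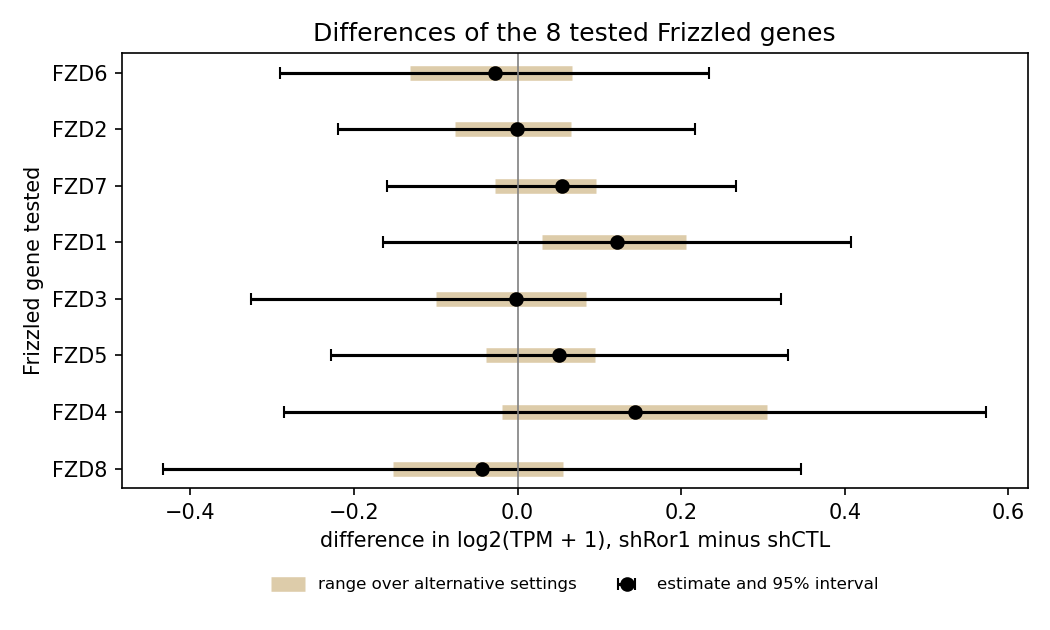
Difference in log2(TPM + 1), shRor1 minus shCTL (x axis), for the 8 tested Frizzled genes (y axis). Points are estimates and thin lines their 95% intervals from limma, and wide bars give the range over the alternative settings; every interval includes 0, and FZD1 is the 1 member whose bar stays on one side of it.

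The sign of several members turned on single libraries. FZD4 moved from 0.14 to -0.02 without the third shRor1 library and to 0.31 without the first. FZD6 became positive without the third shCTL library (0.02) or without the first shRor1 library (0.07), and FZD8 became positive without the second shCTL library (0.04) or the third shRor1 library (0.06). FZD3 became positive without the first shCTL library (0.08), the second shCTL library (0.009), the first shRor1 library (0.008) or the third shRor1 library (0.03), and FZD2 without the third shCTL library (0.07), the first shRor1 library (0.008) or the third shRor1 library (0.01). FZD1, FZD5 and FZD7 kept a positive sign whichever library was left out.

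For each of the 8 tested members the group means in TPM differed by less than the larger of the group SDs. The first shRor1 library held the lowest value of 3 of the 8 members and the highest of none, while the second shRor1 library held the highest of 3 and the lowest of none. Relative to the mean of the 6 libraries, FZD6 lay at -0.20 and FZD4 at -0.25 in the first shRor1 library and at 0.20 and 0.40 in the third, and FZD8 went the other way, at 0.20 in the first and -0.22 in the third. As a description over 6 libraries that share a line and a scaling, Pearson's r of log2(TPM + 1) was 0.89 between FZD4 and FZD6, -0.81 between FZD6 and FZD8, -0.86 between FZD4 and FZD8, -0.76 between FZD2 and FZD3 and 0.73 between FZD1 and FZD4. The third shRor1 library, which had the highest median ratio, also held the highest FZD4 and FZD6 and the lowest FZD8, and the part of its scale in these values was not tested beyond the rescaled fits.

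**Figure D3:**
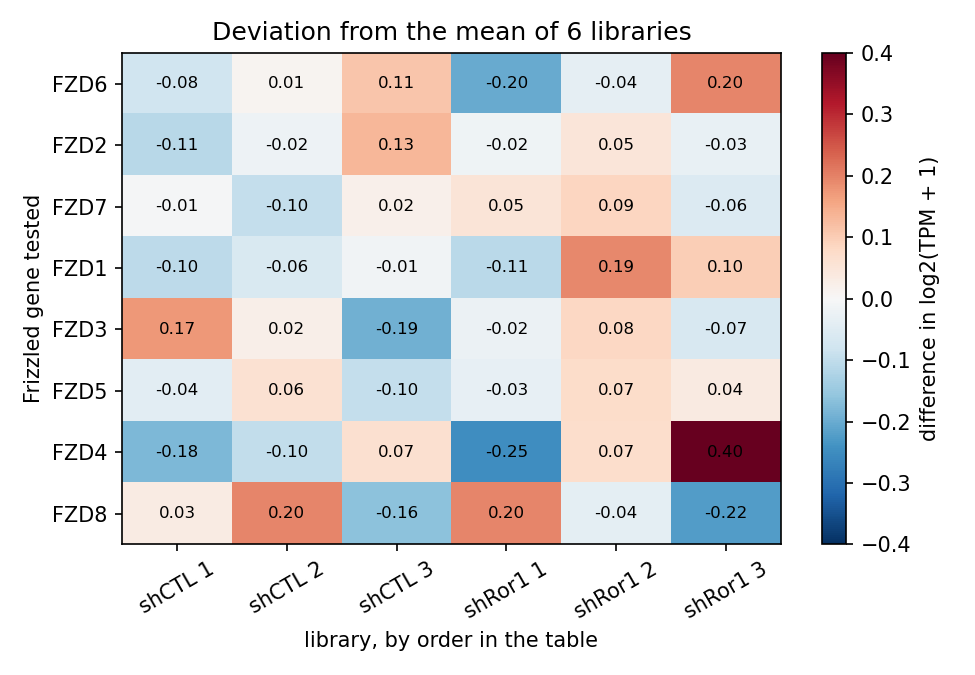
Deviation of each tested Frizzled gene (y axis) from its own mean over the 6 libraries (x axis), as a difference in log2(TPM + 1), with red above and blue below the mean. FZD4 spans the widest range, from -0.25 in the first to 0.40 in the third shRor1 library, and no gene separates the 3 shCTL from the 3 shRor1 libraries.

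Among 12202 tested protein-coding genes, those whose pattern over the 6 libraries was most like that of FZD6 were SPTLC2 (r = 0.99), a subunit of the enzyme that starts sphingolipid synthesis, GAPVD1 (r = 0.99), an endocytic regulator of Rab5, and C1R (r = 0.99), a complement protease. These 3 were picked as the highest of all the genes compared, over just 6 points, and 311 of these genes (2.55%) had an r above 0.9. SPTLC2 was at 15.5 ± 2.30 TPM in shCTL and 15.2 ± 4.37 in shRor1, and C1R at 11.0 ± 2.81 and 11.3 ± 6.396, with overlapping groups.

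The gene models differ between members, and the effect of this on the values was not tested. In the coordinates of GRCh37, the plus-strand genes FZD1 (chromosome 7, 90893748 to 90900641) and FZD2 (chromosome 17, 42634852 to 42638630) each consist of 1 exon, as do FZD7, FZD8, FZD9 and FZD10. FZD6 has 7 exons, 6 of them coding, on chromosome 8 from 104310661 to 104345094, and FZD3 has 8 exons, 6 of them coding, on the same chromosome from 28351722 to 28431784. The transcript of FZD3 is 13770 bases long with a 3′ UTR of 11247 bases, against 3728 bases for the whole transcript of FZD6.

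FZD4 shares its locus with a far more abundant gene. It lies on the minus strand of chromosome 11 from 86656721 to 86666437, in 2 exons, and PRSS23, which encodes a secreted serine protease, is annotated on the opposite strand over 7232 of its bases. Exons of PRSS23 transcripts cover 1399 exonic bases of FZD4, of which 1255 are coding. PRSS23 had 347.98, 408.97 and 508.91 TPM in shCTL and 361.85, 548.98 and 602.26 TPM in shRor1, from 176 to 217 times the level of FZD4 in the same library. As in FZD4, the third shRor1 library was the highest, and the first shCTL and first shRor1 library were the lowest of their groups. Over the 6 libraries r was 0.93 between FZD4 and PRSS23 in log2(TPM + 1), and 0.94 between FZD4 and FZD4-DT, a long non-coding RNA that lies 220 bases away on the opposite strand and was measured at 0.367 ± 0.144 TPM in shCTL and 0.647 ± 0.430 in shRor1. With the other tested Frizzled genes, all on other chromosomes, r of FZD4 ran from -0.86 (FZD8) to 0.89 (FZD6). The share of all genes with an r this high to FZD4 was not computed. The library kit keeps the strand, but the strand setting of the counting was not given in the sources used here. The part of PRSS23 reads in the FZD4 values was not tested.

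**Figure D4:**
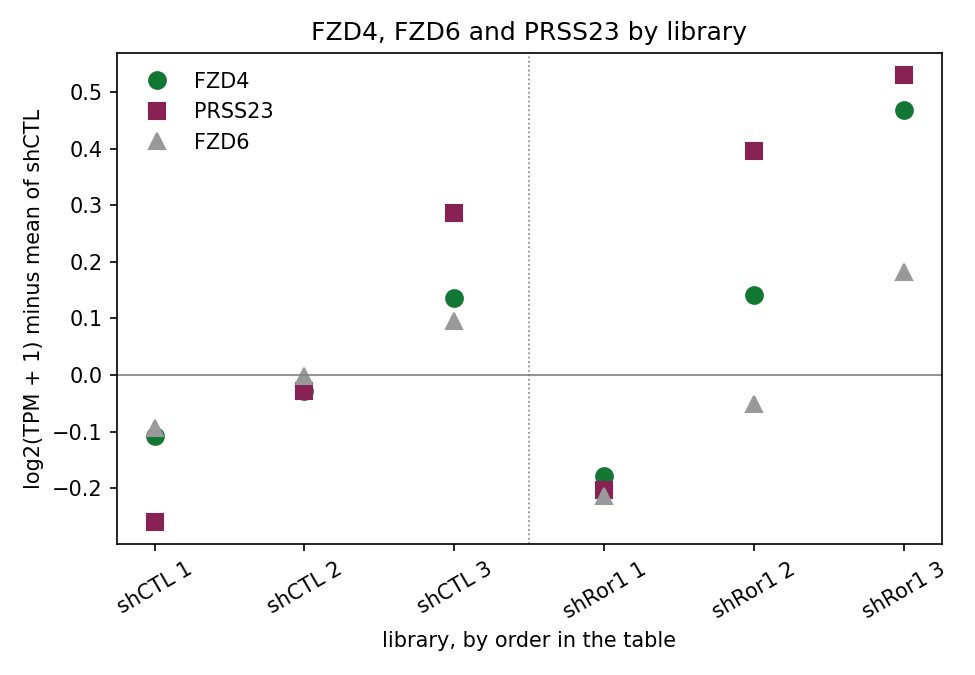
Level of FZD4 (green circles), PRSS23 (purple squares) and FZD6 (grey triangles) in each library (x axis) as log2(TPM + 1) minus the mean of the 3 shCTL libraries (y axis). FZD4 and PRSS23 are both lower in the first shCTL and first shRor1 library and higher in the third library of either group.

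Other members had less overlap. BAALC-AS1, on the strand opposite to FZD6, shares 340 bases with it, 138 of them exonic and none coding, and had 2.36 ± 0.481 TPM in shCTL and 2.59 ± 0.658 in shRor1, at most 0.0545 of the FZD6 level. CCNYL1 lies 758 bases from FZD5 on the other strand (27.6 ± 1.96 against 28.8 ± 2.58 TPM), and FZD10-AS1 lies 202 bases from FZD10 and was near 0.10 TPM in both groups although FZD10 itself was listed at 0. The small RNA genes MIR4683 within FZD8 and MIR4288 and RNA5SP259 within FZD3 were listed at 0 in all libraries.

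The genes that act with Frizzled receptors were read as lists beside the family. Among the co-receptors, 8 of 10 genes were tested, 7 higher and 1 lower by estimate. Of all 16554 tested genes, 11093 (67.0%) were higher by estimate, a share that also stands beside the counts of the lists below. Of the co-receptors 0 passed the adjusted or the unadjusted p of 0.05 in limma, beside 0% and 2.85% of all tested genes. The median difference of the co-receptors, 0.07, turned to -0.01 without the third shRor1 library and under median ratio scaling. It rose to 0.15 without the third shCTL library. The median over all tested genes, 0.054 in the main fit, also moved. It was 0.025 without the third shRor1 library, -0.017 under median ratio scaling and 0.08 without the third shCTL library. PTK7, a kinase-dead receptor of the polarity branch, had the highest mean over the 6 libraries, at 61.7 ± 7.29 TPM in shCTL and 64.6 ± 4.36 in shRor1, and RYK, a Wnt-binding pseudokinase, was at 58.3 ± 2.72 and 58.3 ± 2.12 TPM. LRP5, the beta-catenin co-receptor, was the furthest above 0 in the list (difference 0.34, 95% interval -0.46 to 1.14), with 38.65, 42.21 and 67.4 TPM in shCTL and 38.42, 58.37 and 100.59 TPM in shRor1. The value in the third shRor1 library exceeded that of PTK7 and all other LRP5 values, and its groups overlapped. ROR2, the sister of ROR1, was at or below 0.01 TPM in every library. The 1 co-receptor that was lower was ROR1 itself. All 3 Dishevelled genes, the adaptors that bind the KTXXXW motif, were tested, 1 higher and 2 lower. Their median was -0.01, with -0.02 to 0.06 when single libraries were left out and -0.09 under median ratio scaling. DVL1 was at 51.0 ± 2.54 and 50.3 ± 8.63 TPM and DVL2 at 44.8 ± 4.57 and 44.3 ± 1.5 TPM. SMO, the Hedgehog transducer of the same receptor class, was at or below 0.01 TPM.

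Of the genes that set how much Frizzled protein stays at the surface, 3 of 10 were tested, 2 higher and 1 lower. Their median was 0.09, with 0.05 to 0.15 when single libraries were left out and 0.02 under median ratio scaling. USP8, a deubiquitinase that returns receptors to the membrane, was at 30.8 ± 2.30 and 32.9 ± 1.86 TPM, and LGR4, an R-spondin receptor, at 16.9 ± 2.80 and 23.1 ± 8.80 TPM with overlapping groups. None of the 6 secreted decoys reached the filter, and their sum was between 0.18 and 0.36 TPM in all libraries, with SFRP5 the highest at 0.190 ± 0.0173 and 0.173 ± 0.0306 TPM, followed by FRZB at 0.0367 ± 0.0153 and 0.0733 ± 0.0289 TPM.

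Of 20 ligands, 7 were tested, 5 higher and 2 lower by estimate, with a median difference of 0.16 that fell to 0.007 without the first shCTL library, 0.05 without the second and 0.06 without the third shRor1 library, and rose to 0.26 without the third shCTL library. WNT5B, a non-canonical ligand, led with 11.3 ± 0.346 and 10.7 ± 0.753 TPM. WNT5A, the ligand of ROR1, had 4.8, 4.63 and 5.44 TPM in shCTL and 5.41, 5.69 and 6.53 TPM in shRor1, and the third control lay above the first shRor1 library. WNT2B, named here after its values were seen, was the ligand furthest from 0 (difference 0.31, 95% interval -0.02 to 0.63, adjusted p = 0.984, limma), with 1.1, 1.44 and 1.33 TPM in shCTL and 1.66, 1.67 and 2.18 TPM in shRor1, which did not overlap. Both genes of ligand release were tested (median 0.09, and 0.02 under median ratio scaling). WLS, which carries Wnt proteins to the surface, was at 54.5 ± 5.62 and 54.1 ± 4.57 TPM, and PORCN, which attaches their lipid, was at 4.34 ± 0.193 and 5.11 ± 0.383 TPM. The groups of PORCN did not overlap, its difference was 0.19 (95% interval -0.07 to 0.46), and its adjusted p was 0.984 in limma. WNT2B and PORCN were the 2 genes without overlap among the 28 tested genes of these lists (7.14%), beside 7.78% of all tested genes.

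At the other end of the pathway, 6 of 11 common beta-catenin targets were tested, 2 higher and 4 lower. Their median was -0.05, with 0.006 without the second shCTL library, -0.01 without the third shRor1 library and -0.13 under quantile normalization. Of these targets 0 were called, beside 0% of all tested genes. At an unadjusted p below 0.05 in limma there were 0, beside 2.85% of all tested genes. LEF1, a transcription factor that works with beta-catenin and is also its target, was at 13.5 ± 1.74 and 13.3 ± 3.11 TPM, and ZNRF3, a ligase that removes Frizzled from the surface, at 5.75 ± 0.325 and 5.49 ± 0.576 TPM.

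**Figure D5:**
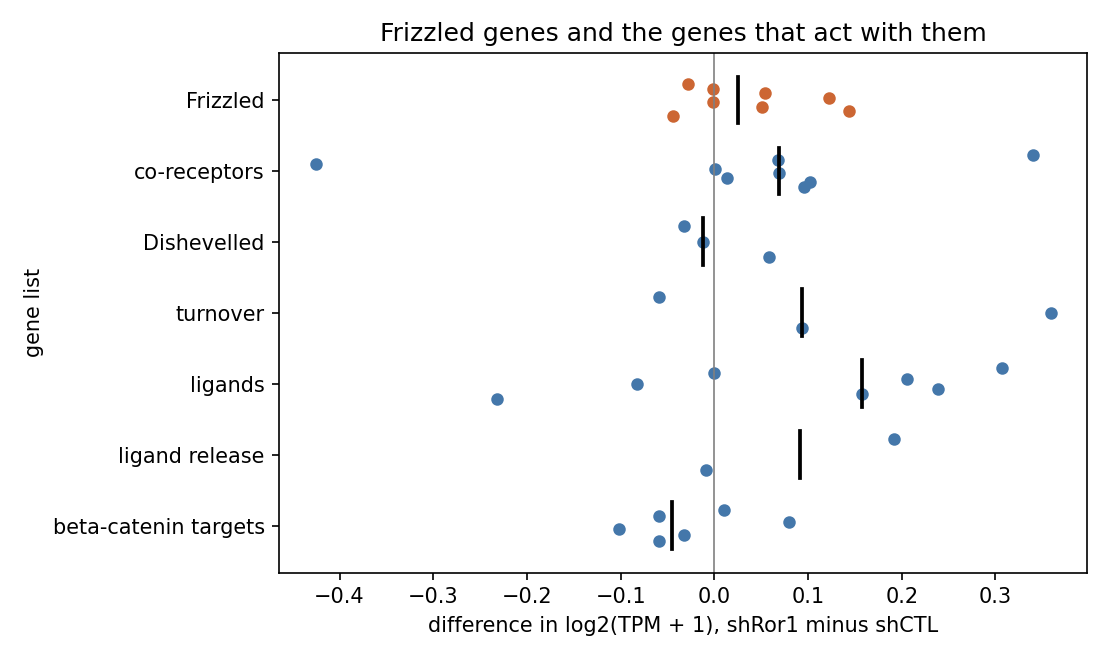
Difference in log2(TPM + 1), shRor1 minus shCTL (x axis), of each tested gene in the Frizzled family (orange) and in 6 lists of genes that act with it (blue), with a black line at each list's median. The 8 Frizzled genes lie between -0.04 and 0.14, while single co-receptors, ligands and turnover genes lie further out, with ROR1 the lowest at -0.43; no gene shown passed the test.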

How the data were processed

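RNA-Seq of MDA-MB-231 cells (3 shCTL and 3 shRor1 libraries, single reads of 50 bases) was analysed from the gene table. Per the processing notes of the submitters, the authors used CASAVA 1.8.2, FastQC 0.10.0, STAR, RSEM 1.2.5 and edgeR, on GRCh37 with Ensembl 73. The deposited table holds TPM with 2 decimals, although it is called expected counts, and each column sums to 1000000 within rounding. TPM keeps no depth. The paper lists mapped reads for each replicate, but no column names its replicate, so the depth of a given column is unknown. Because the values are TPM, no count test was run. The column headers give the group and no number, so libraries are numbered by their order in the table.

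Symbols were found for 55022 of 57445 identifiers. After genes below 1 TPM in more than 3 libraries were removed, 16554 were fitted as log2(TPM + 1) with limma 3.58.1 in R 4.3.3 (empirical Bayes with a mean-variance trend, the group as the only term), with Benjamini-Hochberg adjustment over all of them at 0.05. Fold changes on this scale understate those of low genes. The fit was tested on simulated data, and the exact permutation tests on small fixed sets of values with a known answer. The planned test of neighbouring genes in the order of levels is not reported, because the order was set on the same libraries. Gene models and sequences were read from GENCODE 44 in its GRCh37 version, which is newer than the annotation the authors used. Named genes were all 10 members, ROR1, the 2 most abundant genes of each list (and any with an unadjusted p below 0.05), genes that overlap a member or lie within 1000 bases, and the 3 genes most like FZD6. Overlapping genes with no symbol and repeat partners of the 50-base words are not named. ROR2, LRP5, WNT2B, FN1, PGR, KRT5, KRT19, EPCAM, GATA3, FOXA1 and CDH1 were named after their values were seen. All of these were already on the lists of partner genes or cell markers. The members and lists were chosen with earlier results of these data known. Alternatives were another pseudocount, 2 other filters, 3 other scalings, no trend, array weights and each library left out.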

Additional observations from a re-analysis of the deposited data

How the results depend on the processing

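The count of 0 Frizzled genes called held under every alternative run, with adjusted p-values of the members between 0.546 and 1. Over all genes the count called was also 0, with a range of 0 to 1 when libraries were left out. The 1 gene, a ribosomal protein pseudogene (RPL39P3, -5.38, adjusted p = 9.29e-06, limma, without the third shRor1 library), is named after its value was seen. At an unadjusted p below 0.05, 1363 genes passed with no filter, 227 at a mean of at least 5 TPM, 859 with array weights and 278 to 1720 when libraries were left out. Signs turned for FZD5 (-0.039) and FZD7 (-0.027) under quantile normalization, for FZD5 (-0.007) and FZD7 (-0.02) under median ratio scaling, and for FZD2 (0.046) with array weights. The median over all tested genes was 0.054 in the main fit, 0.001 under quantile normalization, -0.017 under median ratio scaling and 0.062 with array weights. It ran from 0.025 to 0.08 when single libraries were left out. The cause of the turned signs was not tested. Leaving out libraries gave -0.057 to 0.065 for FZD2, -0.1 to 0.084 for FZD3, -0.019 to 0.305 for FZD4, -0.132 to 0.066 for FZD6 and -0.152 to 0.056 for FZD8. FZD1 kept its sign under all 14 alternatives. FZD3, FZD4, FZD5 and FZD8 have no value at a mean of at least 5 TPM. ROR1 stayed lower in all 15 fits (-0.58 to -0.26, smallest adjusted p 0.625). No paired analysis was possible because a library's number is not in its column name.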
